A study of Mus musculus with 4 samples.

Results

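Mouse mitochondrial DNA carries the genes of 13 proteins, all of them parts of the machinery that makes ATP by respiration. The 6 mRNAs described here are those of complexes III, IV and V: mt-Cytb (cytochrome b of complex III), mt-Co1, mt-Co2 and mt-Co3 (the catalytic core of complex IV, cytochrome c oxidase), and mt-Atp6 and mt-Atp8 (the membrane part of complex V, the ATP synthase). They were chosen by name, as the mitochondrially encoded subunits of these complexes and not by their values, although earlier results of these data were known when the choice was made. All 6 were among the 15255 genes of the deposited table. The other 7 mitochondrially encoded mRNAs belong to complex I and serve as the comparison.

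Poly(A) RNA was sequenced from freshly isolated mouse bone marrow LSK cells, the lineage-negative, Sca-1+ c-Kit+ fraction that holds haematopoietic stem and early progenitor cells. The design compared 2 Afg3l2 WT (wild-type) libraries with 2 Afg3l2 KO (knockout) libraries, numbered 1 and 2 in each group. Afg3l2 encodes part of a proteolytic complex, the m-AAA protease, that sits in the inner membrane of mitochondria. How the knockout was made, the strain, the age, whether the libraries come from separate animals, and whether reads kept their strand are not given in the sources used here, so p-values measure only the spread between these libraries. The deposited values are CPM relative to an adjusted size of each library, and total reads recovered from them were 16522338 to 17271936 per library. Afg3l2 itself was at 79.6 and 86.0 CPM in wild type and at 36.7 and 30.1 CPM in knockout (limma log2 fold change -1.29 ± 0.16 SE, adjusted p = 0.0115). All 8 LSK markers examined were detected, Kit at 223 to 341 CPM, with sums of 1356 and 2042 CPM in wild type and 1147 and 1418 CPM in knockout. Of 9 lineage markers, 8 were in the table, with sums of 79.2 and 190 CPM in wild type and 82.7 and 157 CPM in knockout. In both groups the library numbered 2 had the higher lineage sum, and it also differed in Xist, at 889 and 1004 CPM against 0.113 and 15.7 CPM in the libraries numbered 1. The Y-linked gene Ddx3y had 83.4 and 72.4 CPM in the libraries numbered 1 and 5.04 and 3.50 CPM in those numbered 2.

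In the respiratory chain, complex III passes electrons from ubiquinol to cytochrome c, complex IV hands them on to oxygen, and both pump protons across the inner membrane. Complex V lets the protons flow back and makes ATP. In mammals both strands of mitochondrial DNA are transcribed as long precursors that are cut, mostly at tRNAs, into mRNAs. Most of these mRNAs hold a single gene and most have short poly(A) tails. mt-Atp8 and mt-Atp6 stay together on 1 mRNA. The m-AAA protease is known to clear unassembled inner membrane proteins and to mature a protein of the mitochondrial ribosome. Since the libraries were made from poly(A) RNA of whole cell samples, less mRNA, shorter tails, fewer cells of a type and less RNA per cell cannot be told apart in these values.

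In the GRCm38 annotation of GENCODE release M21, all 6 genes lie on the plus strand of the mitochondrial chromosome M. mt-Co1 (ENSMUSG00000064351) spans bases 5328 to 6872, mt-Co2 (ENSMUSG00000064354) 7013 to 7696, and mt-Atp8 (ENSMUSG00000064356) 7766 to 7969. mt-Atp6 (ENSMUSG00000064357) spans 7927 to 8607, mt-Co3 (ENSMUSG00000064358) 8607 to 9390, and mt-Cytb (ENSMUSG00000064370) 14145 to 15288. mt-Atp8 and mt-Atp6 share 43 bases on the same strand, so a read lying in the shared stretch belongs to both genes. The last 72 bases of mt-Atp8 (chrM:7898-7969) and the first 72 bases of mt-Atp6 (chrM:7927-7998) are printed here, both on the plus strand, to show that stretch, which is in capitals.
mt-Atp8: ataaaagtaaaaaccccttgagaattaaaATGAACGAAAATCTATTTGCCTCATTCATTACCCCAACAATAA
mt-Atp6: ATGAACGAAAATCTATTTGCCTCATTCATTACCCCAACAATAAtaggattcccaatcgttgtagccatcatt

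The nuclear genome holds copies of mitochondrial DNA, and those bear directly on what was counted for 4 of the 6 genes. A run of 7 annotated unprocessed pseudogenes on the minus strand of chromosome 1, from 24611535 to 24616197, follows the order of the mitochondrial genes from mt-Co1 to mt-Nd4. Within it, Gm28661 matched bases 1 to 681 of mt-Co2, Gm10925 bases 1 to 678 of mt-Atp6, and Gm28437 bases 1 to 783 of mt-Co3, each at 100% identity. Gm29216 matched mt-Co1 from base 1063 to its end at 99.8% identity. A copy on chromosome 2, Gm13340, spans all 1545 bases of mt-Co1 at 97.6% identity, and Gm13341 beside it matched mt-Co2 at 95.9%. For mt-Cytb no annotated nuclear transcript reached the 95% identity used to call a copy near-identical. mt-Atp8 has no annotated copy, but the 233 bases that separate the end of the mt-Co2 match from the start of mt-Atp6 are also 233 bases long on chromosome 1, and 161 bases of mt-Atp8 lie in that gap, so an unannotated counterpart there could not be examined from annotated transcripts.

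Read length sets how far this matters. Of all 150-base windows of each gene, the length of a read here, 99.4% of those of mt-Co2, 99.8% of those of mt-Co3 and 99.4% of those of mt-Atp6 occurred letter for letter in an annotated nuclear transcript. The share was 23.6% for mt-Co1, and it was 0% for mt-Cytb. The counts of mt-Co2, mt-Co3 and mt-Atp6 are therefore uncertain, since nearly all of their reads could have been placed on either gene or copy. The windows of mt-Cytb and most of those of mt-Co1 occurred in no annotated nuclear transcript. Unannotated nuclear copies were not searched. The end of mt-Co2 (chrM:7634-7696, plus strand) and the end of its chromosome 1 copy (chr1:24614885-24614944, minus strand, written 5′ to 3′) are shown because the copy's annotated letters differ from the gene at no position; capitals mark the gene's letters past the annotated end of the copy.
mt-Co2: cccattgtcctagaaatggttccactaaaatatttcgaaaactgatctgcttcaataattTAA
Gm28661: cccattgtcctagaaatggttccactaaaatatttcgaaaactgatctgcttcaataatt

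For mt-Co1, a 60-base stretch (chrM:6390-6449, plus strand) is shown with the same stretch of Gm29216 (chr1:24616129-24616188, minus strand) and Gm13340 (chr2:22588526-22588585, minus strand). It was chosen to hold the 1 letter that separates Gm29216 from mt-Co1 over 483 aligned bases. Gm13340 differs from mt-Co1 at 37 of 1545 aligned bases, of which 1 lies in this stretch. Capitals mark the positions at which any of the 3 differ. Counted from 1 at the 5′ end of mt-Co1, Gm29216 carries A1066T and Gm13340 carries T1072C.
mt-Co1: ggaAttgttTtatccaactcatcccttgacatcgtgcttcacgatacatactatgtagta
Gm29216: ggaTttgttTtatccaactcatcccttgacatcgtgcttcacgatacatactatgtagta
Gm13340: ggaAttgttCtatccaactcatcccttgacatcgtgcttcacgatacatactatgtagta

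Reads assigned per kilobase spread over a wide range among the 6 genes, which lie on 1 small molecule. A level here is that of assigned reads. For mt-Co2, mt-Co3 and mt-Atp6 it cannot be told from reads dropped or split between gene and copy. mt-Atp8 has a limit of its own: of its 204 bases, 43 are shared with mt-Atp6, and an unannotated nuclear counterpart could not be examined. Its low level therefore cannot be told from dropped reads either. Per kilobase of gene, mt-Co1 was at 12689 ± 3973 CPM (SD, n = 2) in wild type and 8269 ± 1549 CPM in knockout, and mt-Cytb at 4365 ± 1147 and 3805 ± 1199 CPM. In each of the 4 libraries mt-Co1 had the highest level per kilobase of the 6 mRNAs, with 1.91 and 4.36 times that of mt-Cytb in wild type and 2.01 and 2.43 times in knockout. The genes with shared reads stood far below: mt-Co2 at 73.6 to 545 CPM per kilobase, mt-Atp6 at 31.5 to 75.5, and mt-Co3 at 28.9 to 71.9. mt-Atp8 was lowest, at 9.02 to 15.0 CPM per kilobase. The order by group mean, mt-Co1, mt-Cytb, mt-Co2, mt-Atp6, mt-Co3, mt-Atp8, was the same in both groups, although the ranges of mt-Atp6 and mt-Co3 overlap and their order is not beyond the spread.

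mt-Co1 and mt-Cytb together made up 98.5% to 99.4% of the reads of the 6 genes in each library. Low counts were not limited to the 4 other members. Of the complex I mRNAs, mt-Nd3 (33.4 to 68.1 CPM per kilobase) and mt-Nd4l (8.57 to 12.999), whose 150-base windows were 97.0% and 98.0% shared with the chromosome 1 copies, lay at the same low levels, whereas the other 5 lay between 571 and 5890. All 5 genes with over 95% of their windows shared, and mt-Atp8 between them, were thus below every other mitochondrial mRNA. Among the 13 mRNAs mt-Co1 ranked first per kilobase in both groups, and mt-Cytb ranked 3 in wild type and 2 in knockout.

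**Figure D1:**
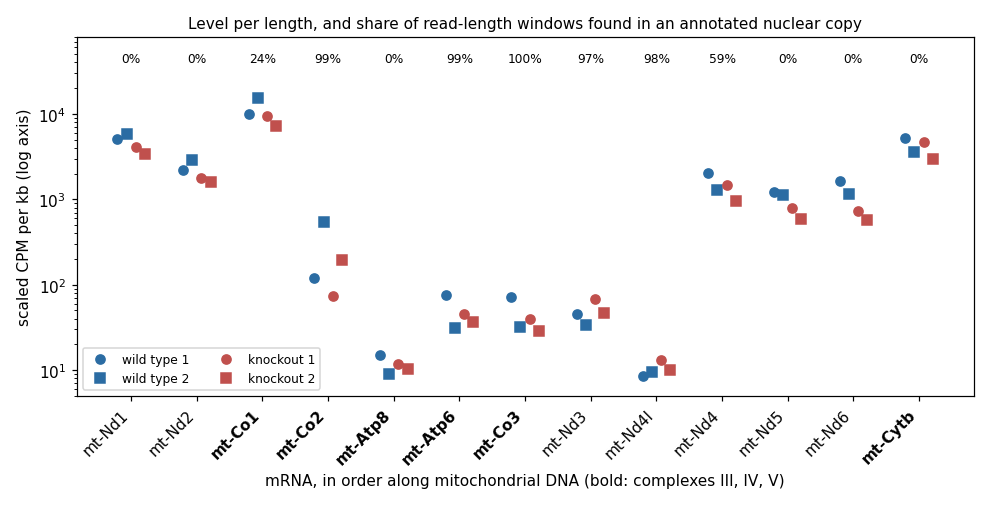
Level per kilobase of gene (scaled CPM, log axis) of the 13 mitochondrially encoded mRNAs in their order along the molecule, with 1 point per library (blue wild type, red knockout; circles library 1, squares library 2) and, above each gene, the percent of its 150-base windows found in an annotated nuclear transcript. mt-Co1 is the highest of the 13, and the genes from mt-Co2 to mt-Nd4l form a low stretch that reaches down to 8.57 CPM per kilobase.

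The question the comparison addresses is whether these mRNAs differ between Afg3l2 knockout and wild-type LSK cells. At an adjusted p under 0.05, limma called 0 of the 6 lower and 0 higher, where 0.839% of all 15255 genes were called lower and 1.58% higher. At an unadjusted p under 0.05, 1 of the 6, mt-Co1, was lower, as were 9.79% of all genes. Without knockout library 2, limma called 0 of all genes (1209 at an unadjusted p under 0.05), so every limma call made with all 4 libraries and no block was lost without it. edgeR's quasi-likelihood test on the recovered reads also called 0 of 6, against 0.61% of all genes called lower. The fitted log2 fold change was below 0 for all 6, as it was for 7879 of all 15255 genes. The median was -0.37 beside -0.017 over all genes. For mt-Cytb, mt-Co3, mt-Atp6 and mt-Atp8 the sign turned in at least 1 fit with a library left out. In 1 of the 6, mt-Co1, both knockout libraries lay below both wild-type libraries, a pattern that 26.9% of all genes had.

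Taken as a sum, the 6 mRNAs gave 2.19% and 2.77% of all reads in wild type, against 1.98% and 1.47% of those in knockout. The means were 2.48% ± 0.411 and 1.73% ± 0.363 (SD, n = 2), a ratio of 0.695, and the groups did not overlap. Since mt-Co1 and mt-Cytb gave 98.5% to 99.4% of these reads, the sum says almost nothing of the other members. Of the 2, mt-Co1 alone did not overlap between the groups. The 7 complex I mRNAs gave 1.33% and 1.27% in wild type, against 0.954% and 0.765% in knockout, a ratio of 0.661. With 2 libraries against 2, an exact two-sided permutation test cannot go below p = 0.333, so neither sum was tested.

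**Figure D2:**
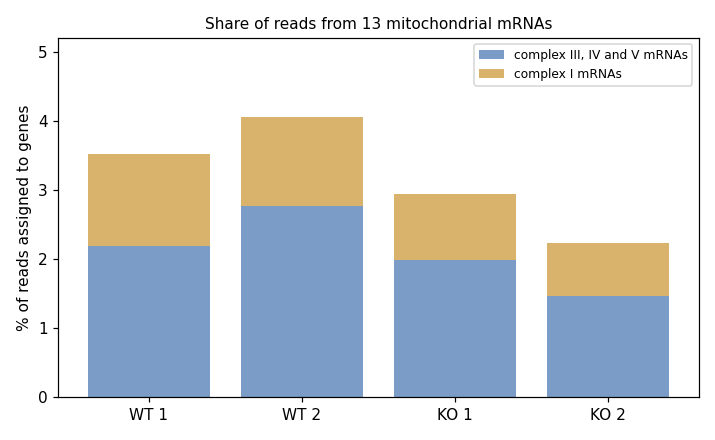
Stacked bars, from 0, of the percent of each library's reads assigned to the 6 mRNAs of complexes III, IV and V (blue, bottom) and to the 7 complex I mRNAs (tan, top), 1 bar per library. The blue part is at 2.19% and 2.77% in the wild-type (WT) libraries, above the 1.98% and 1.47% in the knockout (KO) libraries.

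Complex III draws its only mitochondrially encoded subunit, cytochrome b, which holds the sites where ubiquinol is oxidised and ubiquinone reduced, from mt-Cytb. This mRNA was at 5922 and 4066 CPM in wild type and at 5323 and 3384 CPM in knockout. The groups overlapped, and the libraries numbered 1 were above those numbered 2 in both. The ratio of means was 0.872, and the log2 fold change of -0.21 ± 0.27 (SE) had an adjusted p of 0.710 in limma. The 95% interval of the fold on the log2(CPM + 1) scale, 0.548 to 1.37, leaves room for changes in either direction. The fitted value turned to 0.062 without wild-type library 1 and to 0.12 without knockout library 2.

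Complex IV has its haem and copper centres in the subunits encoded by mt-Co1 and mt-Co2, and mt-Co3 encodes the third core subunit. mt-Co1, with the most assigned reads of the mitochondrial mRNAs, was at 15264 and 23946 CPM in wild type and at 14468 and 11084 CPM in knockout. Knockout values lay below both wild-type values, but wild-type library 1 and knockout library 1 differed little, with a ratio of 0.948 against 0.463 between the libraries numbered 2. The ratio of means was 0.652 (19605 ± 6139 and 12776 ± 2393 CPM, SD, n = 2), and the log2 fold change of -0.59 ± 0.25 did not pass (limma adjusted p = 0.235, edgeR 0.242). The 95% interval of its fold was 0.442 to 0.993, with a variance that draws on other genes and no adjustment for the number of genes. The value moved with each library left out, to -0.92 without wild-type library 1 (adjusted p = 0.0365), -0.27 without wild-type library 2 (0.479), -0.79 without knockout library 1 (0.338) and -0.40 without knockout library 2 (0.865). mt-Co1 took 44.5% and 57.7% of the reads of the 13 mRNAs in wild type, against 49.1% and 49.8% in knockout, so wild-type library 2 was the high one here too.

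mt-Co2, whose product takes electrons from cytochrome c, was the most variable member. It was at 82.8 and 373 CPM in wild type and at 50.4 and 133 CPM in knockout. The groups overlapped, and the library numbered 2 was higher in both groups, at 4.50 times library 1 in wild type and 2.63 times in knockout. Within each number the knockout library was lower, with ratios of 0.608 and 0.356. limma without a block gave -1.10 ± 1.11 with an adjusted p of 0.658, and a 95% interval of the fold from 0.0333 to 6.58. With the replicate number as a block, which leaves 1 residual degree of freedom, the same log2 fold change had a SE of 0.21 and an adjusted p of 0.0390 in limma, so mt-Co2 was then called lower, as 5.02% of all genes were. The authors named their comparison paired, but the labels do not say what a replicate number shares. The authors' deposited table gives mt-Co2 -1.11 on the log2 scale with an adjusted p of 0.000333, and its fold changes matched an edgeR fit with the replicate block more closely (median difference over genes 1.8e-05) than one without it (0.0085).

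The gap between the libraries numbered 1 and 2 in mt-Co2 ran alongside the lineage marker sum and Xist, both of which were higher in the libraries numbered 2 in each group. Their part in the mt-Co2 values was not tested. The copy Gm28661, with the letters of mt-Co2, did not show that gap: it was at 150.8 and 93.0 CPM in wild type and at 111 and 85.1 CPM in knockout. The ratio of mt-Co2 to its copy therefore ran from 0.550 in wild-type library 1 and 0.453 in knockout library 1 to 4.01 and 1.56 in the libraries numbered 2. When the reads of Gm28661 and Gm13341 were added to those of mt-Co2, the sums were 288 and 492 CPM in wild type and 188 and 249 CPM in knockout. Knockout then lay below wild type, with a ratio of 0.560 and a log2 fold change of -0.80 ± 0.28 (limma adjusted p = 0.200, and 0.00730 with the replicate block).

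mt-Co3 was at 56.4 and 25.5 CPM in wild type and at 31.5 and 22.6 CPM in knockout. Wild-type library 1 was above the others and the groups overlapped. The log2 fold change was -0.49 ± 0.41 (limma adjusted p = 0.549). Leaving out wild-type library 1 brought it to 0.067, while leaving out wild-type library 2 gave -1.05 with an adjusted p of 0.0237, so the value rests on which wild-type library is kept. Its copy Gm28437 was close to it in each library, at 65.2 and 26.7 CPM in wild type and 26.4 and 21.2 CPM in knockout, with gene to copy ratios of 0.865 to 1.19.

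**Figure D3:**
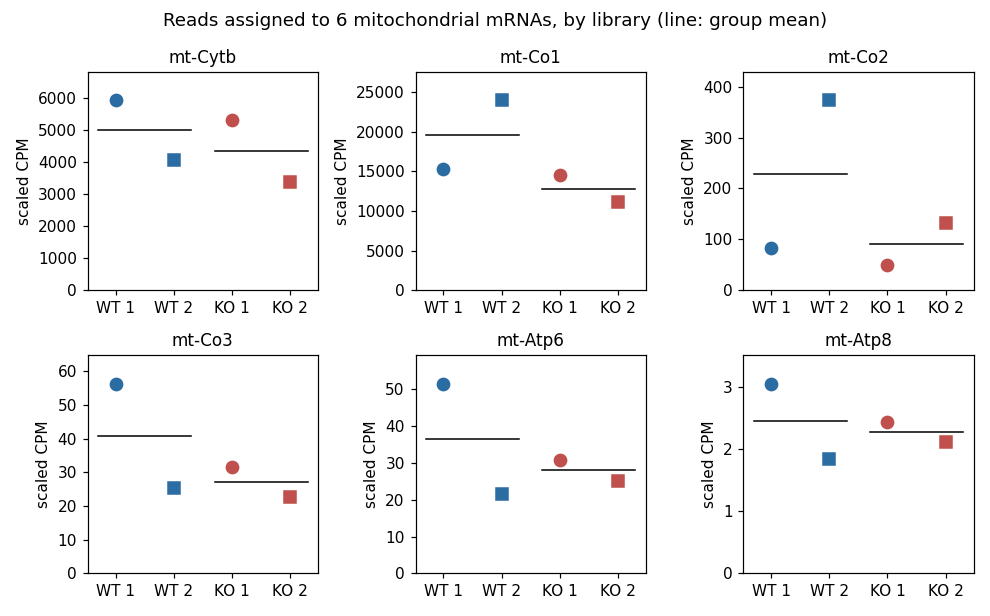
Scaled CPM (linear axes from 0, a different scale in each panel) of the 6 mRNAs in the 4 libraries, with 1 point per library and a line at the mean of each group. The knockout (KO) points lie below both wild-type (WT) points for mt-Co1 and overlap with wild type for the other 5, and mt-Co2 is higher in library 2 of each group.

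Complex V uses the proton channel subunit encoded by mt-Atp6 and the small stalk protein encoded by mt-Atp8. mt-Atp6 was at 51.4 and 21.4 CPM in wild type and at 30.8 and 24.98 CPM in knockout. As with mt-Co3, wild-type library 1 was high, and wild-type library 2 was the lowest of the 4. The log2 fold change was -0.25 ± 0.43 (limma adjusted p = 0.784). It was 0.36 without wild-type library 1 and -0.87 with an adjusted p of 0.0399 without wild-type library 2. The copy Gm10925 was at 90.4 and 33.8 CPM in wild type and 56.0 and 39.1 CPM in knockout, above the gene in every library, with gene to copy ratios held between 0.551 and 0.639.

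mt-Atp8 rested on 54 and 31 reads in wild type, with 41 and 35 reads in knockout, or 3.06 and 1.84 CPM and 2.44 and 2.11 CPM. The exact Poisson 95% intervals of the reads, 40.6 to 70.5 and 21.1 to 44.0 in wild type and 29.4 to 55.6 and 24.4 to 48.7 in knockout, overlapped throughout; they cover counting error only. No difference was detectable at this depth, with a log2 fold change of -0.054 ± 0.33 (limma adjusted p = 0.943), which was 0.20 without wild-type library 1 and 0.018 without knockout library 2. mt-Atp8 and mt-Atp6, which share an mRNA, were both highest in wild-type library 1 and both lowest in wild-type library 2. That was not particular to this pair, since the chromosome 1 copies Gm10925, Gm28438 (of mt-Nd3) and Gm28439 (of mt-Nd4) were so too. For mt-Atp8 the lowest place rested on 31 against 35 reads, within counting error.

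**Figure D4:**
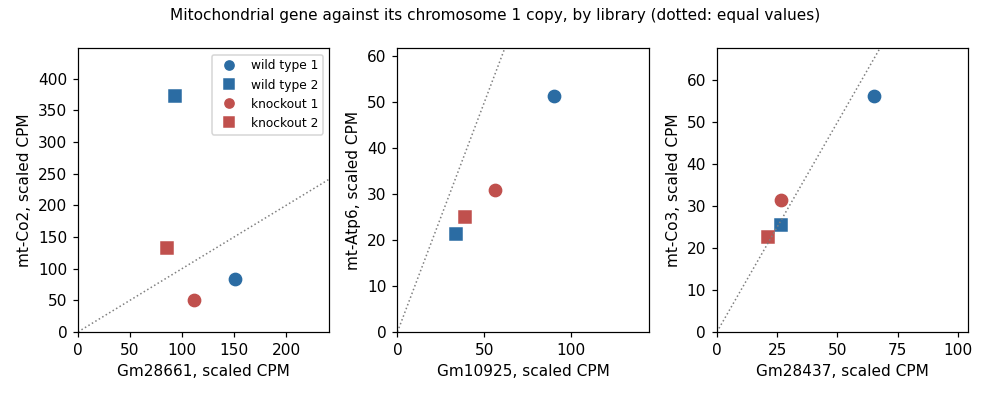
Scaled CPM of mt-Co2, mt-Atp6 and mt-Co3 against that of their chromosome 1 copies Gm28661, Gm10925 and Gm28437 (linear axes from 0), with 1 point per library; the dotted line marks equal values. The points of mt-Atp6 and mt-Co3 follow those of their copies, with ratios of 0.551 to 0.639 and 0.865 to 1.19, whereas mt-Co2 moves from 0.453 to 4.01 times its copy.

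Of the chromosome 1 copies, 1 was called lower. Gm29216, the copy of the last part of mt-Co1, had 66.1 and 52.8 CPM in wild type and 28.3 and 29.7 CPM in knockout, a ratio of 0.488 (limma adjusted p = 0.0299, edgeR 0.0379). Since 1 base separates it from mt-Co1 over that length, whether its reads came from the nuclear copy or from mt-Co1 mRNA was not tested. Gm13340, the full-length copy on chromosome 2, had 98.3 and 85.2 CPM in wild type and 54.0 and 64.0 CPM in knockout (limma adjusted p = 0.0873). mt-Co1 was 231 to 511 times as high as Gm29216, so adding the copies' reads left it at -0.60 (adjusted p = 0.230). With copies added, mt-Co3 was at -0.65 (adjusted p = 0.495) and mt-Atp6 at -0.25 (adjusted p = 0.839).

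Set beside the 6 mRNAs, the 7 complex I mRNAs had 1 called lower by limma and 0 higher, with 4 lower at an unadjusted p under 0.05, where 9.79% of all genes were. With the replicate block limma called 4 of the 7 lower, mt-Nd1, mt-Nd4, mt-Nd5 and mt-Nd6, against 1 of the 6 and 5.02% of all genes. The one called without the block, mt-Nd6, the only mRNA of the 13 read from the other strand, had 853 and 594 CPM in wild type and 376 and 296 CPM in knockout (log2 fold change -1.09 ± 0.21, limma adjusted p = 0.0442, edgeR 0.0596). The median log2 fold change of the 7 was -0.54, with a range from -1.09 to 0.50. Whether the 6 and the 7 differ in their change was not tested. The highest value of the 7, 0.50, was that of mt-Nd3, with 15.96 and 11.6 CPM in wild type and 23.7 and 16.4 CPM in knockout (limma adjusted p = 0.323), a gene whose reads are shared with the chromosome 1 copies. The mitochondrial rRNAs had 0 of 2 called, with mt-Rnr2 at 672 and 1009.5 CPM in wild type and 752 and 612 CPM in knockout.

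**Figure D5:**
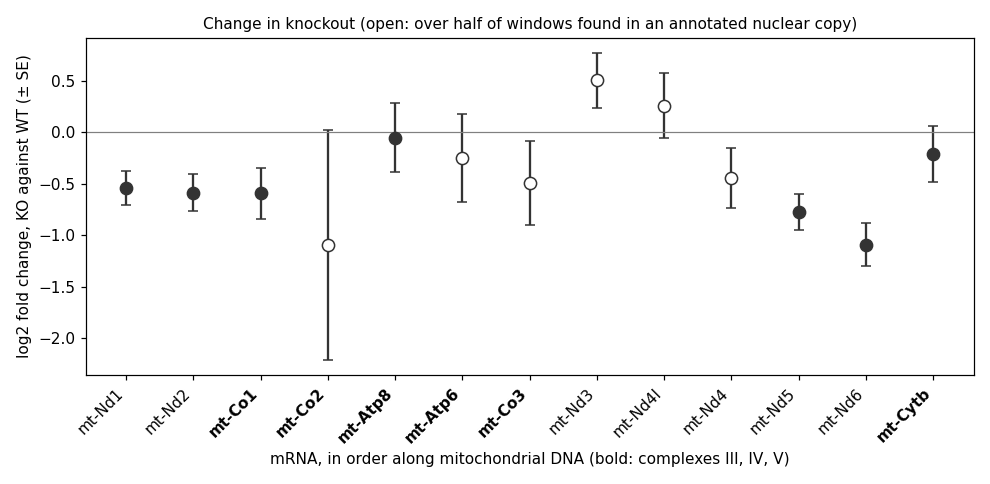
Log2 fold change, knockout against wild type, of the 13 mRNAs in their order along the molecule, from limma on log2(CPM + 1), with bars of 1 SE; open circles mark genes with more than 50% of their 150-base windows found in an annotated nuclear transcript. All 6 members (bold names) lie below 0, between -0.054 and -1.10, and mt-Co2 has the widest bar.

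Complexes III, IV and V combine these subunits with proteins encoded in the nucleus, and few of the latter mRNAs passed the test. Among nuclear complex III subunits, limma called 0 of 8 measured, with a median log2 fold change of -0.14. The smallest p was that of Uqcrh, a hinge protein near cytochrome c1, at 228 and 187 CPM in wild type and 155 and 107 CPM in knockout (-0.68, adjusted p = 0.130). Among 15 nuclear complex IV subunits, 0 were called lower and 1 higher, with a median of -0.22. That gene, Cox6a2, the heart and muscle isoform of subunit 6a, rose from 17.1 and 15.1 CPM to 87.8 and 90.6 CPM (2.40 ± 0.16, limma adjusted p = 0.00214, edgeR 0.00506). Its groups did not overlap. Among 17 nuclear complex V subunits 0 were called, with a median of -0.18 and the smallest p in Atp5mpl, a small subunit of the synthase (-0.47, adjusted p = 0.171).

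Assembly factors gave no call by limma or edgeR. Of 6 factors for complex III, 18 measured for complex IV and 4 for complex V, 0 passed in either direction, with medians of -0.12, 0.080 and 0.14. Pet100, which helps assemble complex IV, was at 30.0 and 26.0 CPM in wild type and 18.5 and 12.6 CPM in knockout (-0.83, adjusted p = 0.116). Uqcc3, needed for complex III, was at -0.59 on the log2 scale (adjusted p = 0.148), and Atpaf1, a chaperone of the complex V catalytic head, was at 0.46 (adjusted p = 0.233). Among 20 genes for processing, stability or transcription of mitochondrial RNA, 0 were called by limma or edgeR. 7 of them were higher at an unadjusted p under 0.05 and 0 lower, where 11% of all genes were higher and 9.79% lower, with a median of 0.28 beside -0.017 over all genes. The smallest p there was that of Supv3l1, an RNA helicase of the mitochondrial degradosome, at 29.0 and 37.6 CPM in wild type and 46.8 and 56.9 CPM in knockout (0.63, adjusted p = 0.130).

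With the replicate block, which called 5.02% of all genes lower and 6.64% higher, limma called some genes of these nuclear lists. Lower were Uqcrh (adjusted p = 0.0111) among complex III subunits, 2 complex IV subunits, Cox6c and Ndufa4, and Atp5mpl (0.0392) among complex V subunits. Of the assembly factors, Uqcc3 (0.0310) and Pet100 (0.0252) were called lower. Higher were Cox6a2 (0.000138), the complex V subunit Atp5b, the complex IV assembly factor Coa5, and Supv3l1 (0.0249) and Lrpprc of the RNA genes. Cox6c, Ndufa4, Atp5b, Coa5 and Lrpprc were named after their values were seen.

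The members did not share 1 pattern over the 4 libraries. Relative to its own mean on the log2(CPM + 1) scale, wild-type library 1 was at 0.80 for mt-Co3 and 0.74 for mt-Atp6 but at -0.53 for mt-Co2, and wild-type library 2 was at 0.62 for mt-Co1 and 1.63 for mt-Co2 but at -0.49 for mt-Atp6. Among 7858 nuclear genes averaging 20 CPM or more, the nearest to the mean profile of the 6, by Euclidean distance over the 4 libraries, were Pym1 at 0.0145, Atp6v1d at 0.0180, Ctps2 at 0.0287, Enkd1 at 0.0345 and Isoc2a at 0.0394. Pym1 had 65.5 and 61.6 CPM in wild type and 47.3 and 44.8 CPM in knockout (limma adjusted p = 0.139). Because the mean profile averages these unlike patterns, a small distance to it is not likeness to any single member.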

How the data were processed

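Per the submitters' processing notes, STAR 2.7.10a and featureCounts 2.0.1 were used with GRCm38.p6; settings for reads that map to several places and for strand are not given in the sources used here. The deposited CPM values are a signal scaled by the authors to effective library sizes. Undoing each column's scale returned whole reads for 100% of values (tolerance 0.01). Because the table holds no raw counts, the test was limma (3.58.1, R 4.3.3), applied to log2(CPM + 1), with trend and robust variance, no replicate block, two-sided, Benjamini-Hochberg adjusted over 15255 genes, and 2 residual degrees of freedom. Errors are SD of CPM and SE of log2 fold changes, which the pseudocount of 1 understates for low genes. The SE, p-values and intervals of limma rest on a variance shared over genes, beyond the 2 residual degrees of freedom of each gene. edgeR 4.0.16 on recovered reads called 287 genes and limma 369; DESeq2 1.42.0 was also run. The authors' log2 fold changes and p-values are from the authors' deposited table.

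Nuclear copies were sought with BLAST 2.17.0 among GENCODE M21 (GRCm38) transcripts, at 95% identity over at least 100 bases; printed sequences come from those transcripts. Members and gene lists were chosen with earlier results of these data known. Named genes were the members, Afg3l2, each list's called genes or else its smallest p, and the 5 nuclear genes nearest in profile. Alternatives covered scaling, pseudocount, filter, tool, replicate block, each library left out, and copies' reads added. Calculations across genes were tested on simulated data. Uqcrc1, Cox20, Sco2 and Pet117 of the lists were not analysed here. Values of some single lineage markers are not reported here.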

Additional observations from a re-analysis of the deposited data

How the results depend on the processing

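Every setting that kept all 4 libraries left mt-Cytb, mt-Co1, mt-Co3, mt-Atp6 and mt-Atp8 negative and uncalled, with adjusted p-values of 0.164 to 0.731, 0.0855 to 0.560, 0.126 to 0.565, 0.555 to 0.839 and 0.928 to 0.951. With the replicate block mt-Co2 was called at -1.10 in limma and -1.11 in edgeR (adjusted p = 0.0390 and 0.0446), and, with copies' reads added, an alternative chosen after seeing the data, at -0.80 (0.00730); 1 member was then called lower in each, and the block changed no other member's call. The authors named their comparison paired, their fold changes lay closer to a fit with the block, and Xist and Ddx3y split the libraries by number. The number thus goes with sex-linked RNA in each group, and what else it shares is not given. The test without the block did not assume pairing, so any difference between the numbers stays in its spread. Libraries with the same number deviated from their group means with a correlation of 0.286 across 13795 genes, which are not independent, with only 2 pairs. Leaving out 1 library at a time gave -0.54 to 0.12 for mt-Cytb, -0.92 to -0.27 for mt-Co1, -2.17 to -0.017 for mt-Co2, -1.05 to 0.067 for mt-Co3, -0.87 to 0.36 for mt-Atp6, and -0.31 to 0.20 for mt-Atp8. Such fits called 0 to 2 members lower and moved the difference in read share between -1.05 and -0.468 percentage points, from -0.758 with all libraries. The lone library of a group was assumed to vary like the others. Over all genes, calls fell from 369 to 0 without knockout library 2 (1209 at an unadjusted p under 0.05), were 64 without knockout library 1, 656 without wild-type library 1 and 1068 without wild-type library 2, and were 1779 with the limma block, 1789 with the edgeR block, 1221 in DESeq2 (2071 genes had no adjusted p) and 117 in limma-voom; the cause was not tested. Among the 6 members, counting depth was lowest for mt-Atp8, which had 31 to 54 reads.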
